A study of Mus musculus with 16 samples.

Results

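The collagen genes of the mouse were examined in adrenal glands in which Rspo1 was set to gain of function (GOF). The members were the protein-coding genes whose symbol has the form Col, a number, the letter a and a number, in the GENCODE M21 annotation: 44 of the 54838 genes in the count table. They comprised 11 fibrillar collagens, 9 network collagens and 24 other collagens. Of the 44, 40 had enough counts to be tested. Col2a1, Col9a1, Col10a1 and Col19a1, whose highest counts in any library were 8, 2, 11 and 6, did not.

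Collagens are proteins of several chains wound into a triple helix, secreted and assembled outside the cell. Fibrillar collagens form the cables of connective tissue, which in the adrenal lie mainly in the capsule and around vessels. Network collagens form sheets, and the type IV chains are the scaffold of basement membranes, which in the adrenal line the capillaries and surround groups of steroid-producing cells. The remaining collagens decorate fibrils, form fine beaded filaments, anchor cells or span the cell membrane.

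Libraries were made from adrenal glands of 16 individual 4-week-old mice of mixed genetic background, in 4 groups of 4: female control, female Rspo1 GOF, male control and male Rspo1 GOF. R-spondin 1, the product of Rspo1, is released by cells and amplifies WNT signals. The study set sex against genotype. The allele, the promoter or cell type that drives Rspo1 and what the control animals carry are not given in the sources used here. Counts were tested with edgeR's quasi-likelihood test in 1 model of all 16 libraries, adjusted p-values (Benjamini-Hochberg) covered 18214 genes, and a gene was called at an adjusted p under 0.05. Gene levels are in CPM, which are counts per 1000000 after scaling of the libraries, listed from replicate 1 to 4, and fold changes as log2 ± standard error.

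Rspo1 itself stood at 14.8 ± 17.4 CPM in female controls and 458 ± 80.2 in female GOF, and at 30.5 ± 12.6 in male controls and 805 ± 201 in male GOF (SD, n = 4), with no overlap within either sex. The female control mean was set by female control 1, at 40.6 CPM, while the other 3 lay between 3.20 and 9.73. Library totals ran from 31275146 to 43003968 counts. All 6 adrenal cortex markers (Nr5a1, Star, Cyp11a1, Hsd3b1, Cyp21a1, Mc2r) were present, with a summed level of 34940.0 to 43680.0 CPM in control females, 39110.0 to 46090.0 in female GOF, 28930.0 to 44240.0 in male controls and 29110.0 to 40370.0 in male GOF. Markers of kidney and liver stood out in 3 control libraries. Kidney tubule markers summed to 804 CPM in female control 1 and 139.9 in female control 3, against at most 2.02 in any other library, and liver markers to 7719 CPM in male control 2, against at most 50.1. Collagen calls are given with and without these 3 libraries, while calls of partner genes and of markers are given with them.

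With Rspo1 GOF, 18 of the 40 tested collagens were called lower in both sexes and 2 were called higher in both. The share of all genes called the same way in both sexes is not given here, and the shares within each sex follow. In females 30 of the 40 tested collagens passed the threshold, 5 higher and 25 lower, where 39.6% of all tested genes passed (19.0% higher, 20.6% lower). In males 24 passed, 3 higher and 21 lower, where 36.9% of all genes passed (15.2% higher, 21.8% lower). The median log2 fold change of the collagens was -1.08 in females and -0.96 in males, and that of all tested genes was 0.052 and 0.0071. Both sexes shared 21 called collagens: 18 were lower in both, Col5a1 and Col4a6 were higher in both, and Col6a1 was lower in females and higher in males. The female comparison alone called 9 more and the male one 3 more, which does not show that the sexes differed in them. Col4a1, Col4a2, Col6a3, Col9a3, Col15a1, Col17a1 and Col20a1 passed in neither sex. The plot of fold changes shows each tested collagen by class.

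**Figure D1:**
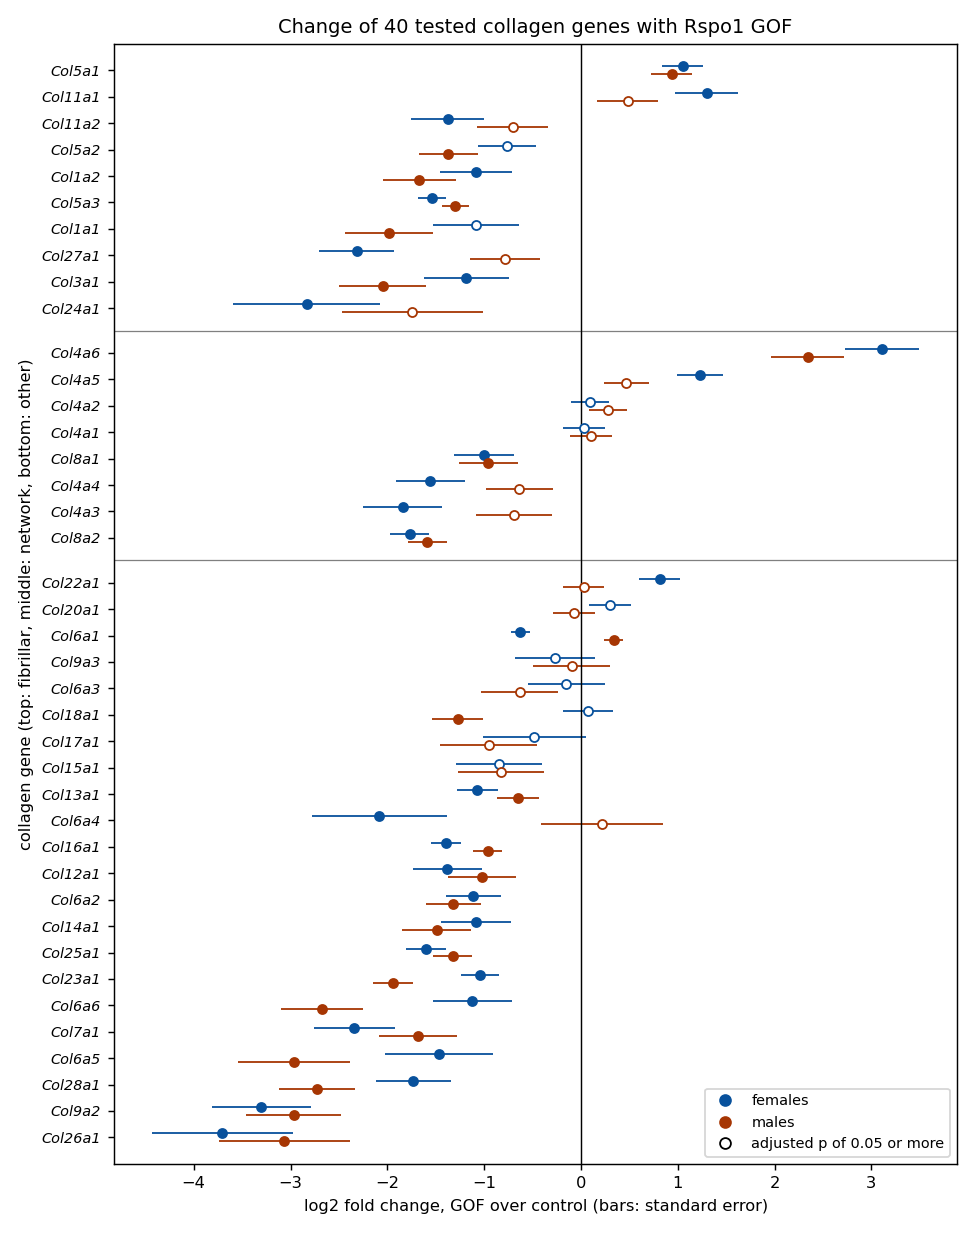
Log2 fold change of GOF over control for the 40 tested collagen genes, with bars for the standard error, in females and males; filled points have an adjusted p under 0.05 and lines separate fibrillar, network and other collagens. Most points lie left of 0, and Col4a6 lies farthest right, at 3.11 in females and 2.34 in males.

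Without the 3 libraries that held kidney or liver transcripts, 20 collagens passed in females (4 higher, 16 lower, where 24.1% of all genes passed) and 20 in males (2 higher, 18 lower, where 25.7% passed). The calls lost in females were Col1a2, Col3a1, Col24a1, Col8a1, Col6a2, Col6a4, Col6a5, Col6a6, Col14a1 and Col22a1, and in males Col8a1, Col6a1, Col12a1 and Col13a1. The sample titles end in numbers whose meaning is not given in the sources used here. They were grouped here into ranges of nearby numbers. With this title number range as a covariate Col3a1, Col6a5, Col6a6 and Col14a1 lost their call in females and none did in males. Other calls were lost in females with no filter on low counts (Col1a2, Col3a1, Col6a5, Col6a6 and Col14a1) and with FPKM (Col6a5 and Col6a6, or with no filter Col1a2, Col3a1, Col6a4, Col6a5, Col6a6, Col8a1, Col11a2 and Col14a1). The filters on low values left Col6a4 and Col24a1 untested in females in the filtered FPKM fits and with only the groups compared. In males calls were lost for Col12a1 with no filter, Col8a1 with only the groups compared and Col13a1 with FPKM, and for Col8a1, Col12a1 and Col13a1 with FPKM and no filter. Of the 6 adrenal cortex markers, 2 were called higher and 1 lower in each sex. Markers of some other cell types were lower. The 6 capsule and fibroblast markers (Pdgfra, Gli1, Nr2f2, Rspo3, Dcn, Lum) were all called lower in both sexes, and their summed level was 375 to 482 CPM in female controls against 119.9 to 173 in female GOF, and 671 to 862 in male controls against 191 to 228 in male GOF. All 6 Schwann cell markers were also lower in both sexes (summed 26.4 to 89.1 against 7.40 to 11.2 CPM in females and 43.5 to 217 against 9.06 to 11.1 in males), as were all 6 markers of the adrenal medulla (summed 4637 to 10660.0 against 190.5 to 752 CPM and 7444 to 11060.0 against 384 to 866). Adipocyte markers were lower for 5 of 6 genes in females (summed 820.2 to 1282 against 339.5 to 547 CPM) and for 6 of 6 in males (1073 to 2544 against 285 to 369.7).

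Of the 6 endothelial markers, 0 passed in females, at a summed 521 to 674 CPM in controls and 548 to 623 in GOF, and 2 were higher in males, at 361 to 819.5 and 752 to 972. Pericyte and smooth muscle markers were lower for 1 of 6 genes in females (summed 173 to 272 against 126 to 186 CPM) and 3 of 6 in males (196 to 489.9 against 194 to 248). Macrophage markers were higher for 1 of 6 genes in females (summed 85.2 to 183 against 155 to 237 CPM) and for 3 of 6 in males (201 to 289 against 312 to 674). None of the markers in these lists was at 0 counts throughout a group. Of 4 tested skeletal muscle markers, 2 were lower in males (all 6 summed 1.42 to 72.8 against 1.65 to 2.09 CPM) and 0 passed in females (1.48 to 4.33 against 1.78 to 2.57), with Myh4 at 0 in female GOF. The part of these cell types in the collagen changes was not tested, and in bulk RNA fewer cells of a type cannot be told apart from less collagen RNA per cell.

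Among the fibrillar collagens, 2 were higher and 6 lower of 10 tested in females, a share of 80.0% called where 39.6% of all genes were, and 1 was higher and 5 lower in males, 60.0% where 36.9% were. Col1a1 (ENSMUSG00000001506, chromosome 11, 94936224 to 94953042, build GRCm38) encodes the main chain of type I collagen. It stood at 206, 328, 277 and 319 CPM in female controls and 54.8, 197, 149.8 and 132 in female GOF, and at 265, 558, 1689.8 and 816 in male controls and 222, 189, 208 and 222 in male GOF. The groups did not overlap in either sex, and male controls spread over a wide range set by male control 3. The fold change was -1.98 ± 0.45 (adjusted p = 0.00357) in males and missed the threshold in females, at -1.08 ± 0.44 (adjusted p = 0.067); the female value passed when female GOF 2 or male control 1 or 3 was left out, with DESeq2 and with only the groups compared. Without male control 3 the mean of the male controls fell from 832 to 546 CPM.

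Col1a2, the partner chain of type I collagen, was at 300.1, 377, 348 and 405 CPM in female controls and 75.6, 235, 195 and 168 in female GOF, and at 334, 629, 1458 and 865 in male controls and 288, 209.8, 272 and 263 in male GOF. It repeated the picture of Col1a1, with no overlap in either sex and the highest value in male control 3. It was called lower in both, at -1.09 ± 0.37 (adjusted p = 0.031) in females against -1.67 ± 0.38 (adjusted p = 0.00315) in males, and the female call was lost without female control 2, 3 or 4 or female GOF 1 or 4. Col3a1, whose chain forms type III collagen of soft tissues, was at 386, 455, 429.7 and 522 CPM in female controls and 90.0, 285, 216 and 198 in female GOF, and at 281, 867, 2133 and 1005 in male controls and 269, 224, 271 and 274 in male GOF. Male control 1, at 281 CPM, lay just above the highest male GOF library, so the separation of the male groups was narrow there and wide elsewhere. It was called at -1.184 ± 0.44 (adjusted p = 0.0442) in females against -2.04 ± 0.45 (adjusted p = 0.00269) in males, and the female call was lost without female control 1, 2, 3 or 4, female GOF 1, 3 or 4, male control 4 or male GOF 4.

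Type V collagen, which sits inside type I fibrils and limits their width, was split between its chains. Col5a1 (ENSMUSG00000026837, chromosome 2, 27886425 to 28039514) was at 193, 149.8, 153 and 212 CPM in female controls and 356, 363, 332 and 417 in female GOF, and at 148, 189.8, 276 and 323 in male controls and 459.8, 328, 494 and 516 in male GOF. Every GOF library lay above every control library of its sex. The gene was called higher in both sexes, at 1.05 ± 0.21 (adjusted p = 0.00134) and 0.94 ± 0.21 (adjusted p = 0.00305). Col5a2 was at 47.0, 46.9, 46.8 and 55.7 CPM in female controls and 17.5, 34.0, 37.7 and 26.3 in female GOF, and at 36.0, 84.2, 120.0 and 103 in male controls and 33.7, 24.3, 39.8 and 35.1 in male GOF. The female groups did not overlap, and the male groups did through male control 1. It was called lower in males, at -1.37 ± 0.30 (adjusted p = 0.00277), and missed the threshold in females, at -0.77 ± 0.30 (adjusted p = 0.0553), where it passed without female GOF 3, male control 1 or 3 or male GOF 2, and with DESeq2, upper-quartile factors and only the groups compared.

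Col5a3 (ENSMUSG00000004098, chromosome 9, 20770050 to 20815067), a chain of restricted tissue range, was at 631, 528, 465 and 517 CPM in female controls and 209, 150.5, 166 and 212 in female GOF, and at 258, 271, 178 and 226 in male controls and 92.8, 102, 98.6 and 86.1 in male GOF. No library of a GOF group reached a control of its sex, and female GOF lay partly within the male control range. With -1.54 ± 0.14 (adjusted p = 2.85e-06) in females against -1.30 ± 0.14 (adjusted p = 7.12e-06) in males it had the smallest adjusted p of all collagens in the female comparison. The ratio of Col5a1 to Col5a3 counts was 0.307, 0.284, 0.329 and 0.410 in female controls and 1.70, 2.41, 1.996 and 1.97 in female GOF, and 0.575, 0.701, 1.55 and 1.43 in male controls and 4.96, 3.23, 5.01 and 5.99 in male GOF. The GOF ratios lay above all control ratios in both sexes. Such a ratio compares libraries and not the levels of the chains. Gene models on the opposite strand cover 2.5% of the exonic bases of Col5a1.

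The windows at the starts of both genes are shown because the chains moved in opposite directions. They run from 250 bases before to 50 bases after the annotated start and come from RefSeq on GRCm38.p6, Col5a1 at chr2:27886175-27886474 on the plus strand and Col5a3 at chr9:20815018-20815317 on the minus strand. Capitals mark GGGCGG and CCAAT boxes, read on either strand, so that CCGCCC is the first box on the other strand.
Col5a1: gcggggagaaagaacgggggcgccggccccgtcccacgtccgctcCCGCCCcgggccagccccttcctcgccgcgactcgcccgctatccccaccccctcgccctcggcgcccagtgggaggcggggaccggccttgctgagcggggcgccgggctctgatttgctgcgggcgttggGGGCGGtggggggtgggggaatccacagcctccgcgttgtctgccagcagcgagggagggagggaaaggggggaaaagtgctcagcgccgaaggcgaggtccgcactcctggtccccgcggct
Col5a3: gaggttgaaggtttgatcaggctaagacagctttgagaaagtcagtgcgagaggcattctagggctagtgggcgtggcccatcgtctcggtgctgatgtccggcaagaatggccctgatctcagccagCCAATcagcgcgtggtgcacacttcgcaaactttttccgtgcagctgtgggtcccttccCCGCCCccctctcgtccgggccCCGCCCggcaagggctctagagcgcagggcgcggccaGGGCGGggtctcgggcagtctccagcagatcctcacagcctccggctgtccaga
Both windows held GGGCGG, and Col5a3 also held CCAAT. Over 38 windows that matched 35 of the 44 collagens, GGGCGG stood in 60.5% against 35.7% of all 32851 windows of this length, and CCAAT in 34.2% against 37.4%. TATAAA stood in 13.2% against 13.6%. The core of sites for TCF and LEF, the factors of WNT signalling (CTTTG, then A or T, then A or T, on either strand), stood in 7 of the 38 windows, 18.4% against 16.9% of all, and in neither window printed here. These matches describe the letters of the windows only.

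Col11a1, a minor fibrillar chain best known from cartilage, was at 2.91, 1.94, 1.63 and 2.41 CPM in female controls and 5.88, 4.72, 4.63 and 6.66 in female GOF, and at 1.91, 5.03, 2.41 and 3.48 in male controls and 3.37, 2.86, 5.66 and 6.07 in male GOF. The female groups were apart and the male groups overlapped. It was called higher in females, at 1.30 ± 0.32 (adjusted p = 0.00522), and not in males, at 0.48 ± 0.32 (adjusted p = 0.246). Col27a1, another cartilage-associated chain, was at 35.0, 19.2, 21.2 and 29.2 CPM in female controls and 4.44, 9.23, 2.51 and 4.69 in female GOF, and at 29.0, 60.0, 30.7 and 66.6 in male controls and 26.9, 17.8, 33.4 and 30.1 in male GOF. All 4 female GOF libraries lay below every other library, while the male groups overlapped. Its values were -2.32 ± 0.38 (adjusted p = 0.000314) in females against -0.78 ± 0.36 (adjusted p = 0.104) in males. Of the 6 cartilage markers, 1 was higher among the 4 tested in females (summed 6.56 to 11.5 CPM in controls and 15.4 to 23.3 in GOF), and 1 was higher and 1 lower in males (23.9 to 96.1 and 39.98 to 161). Matn1 was at 0 counts in every library and Matn3 in female controls.

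The other fibrillar chains were scarce. Col11a2 ranged over 1.45 to 2.88 CPM in female controls and 0.388 to 1.35 in female GOF, a call of -1.38 ± 0.38 (adjusted p = 0.0098), and the male change missed the threshold at -0.70 ± 0.36 (adjusted p = 0.142). Col24a1 had at most 4 counts in a female GOF library, against 6 to 17 in female controls, and was called lower in females, at -2.83 ± 0.76 (adjusted p = 0.00844). In males it was at -1.74 ± 0.72 (adjusted p = 0.072), with 3 counts or fewer in all male GOF libraries, and passed only without male control 1.

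**Figure D2:**
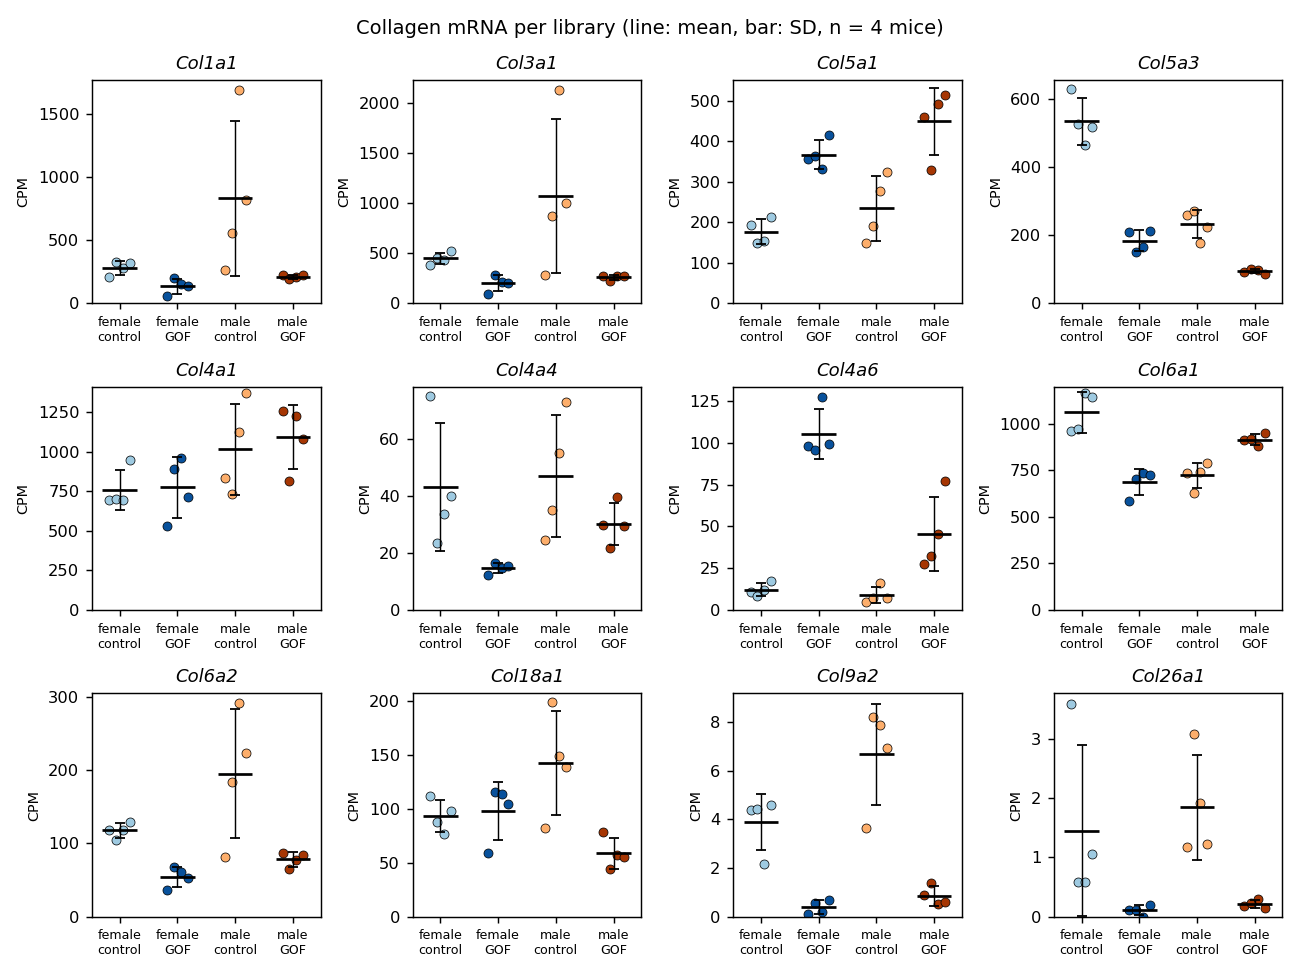
CPM of 12 collagen genes in each library, by group, with lines for the mean and bars for the SD (n = 4). Male control 3 reaches 1689.8 CPM for Col1a1, the GOF groups of Col5a1 and Col4a6 sit above their controls, and those of Col5a3 sit below.

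Network collagens held the largest rise, that of Col4a6. In females 2 were higher and 4 lower of 8 tested, 75.0% called against 39.6% of all genes. In males 1 was higher and 2 lower, and this 37.5% was near the 36.9% of all genes. Col4a1 (ENSMUSG00000031502, chromosome 8, 11198423 to 11312826) encodes the chain that pairs with Col4a2 in nearly all basement membranes. It was at 698, 699, 696 and 949 CPM in female controls and 531, 893, 964 and 712 in female GOF, and at 834, 736, 1123 and 1372 in male controls and 1257, 815, 1224 and 1081 in male GOF. The groups overlapped in both sexes, and the fold change was 0.027 ± 0.22 (adjusted p = 0.932) in females against 0.11 ± 0.22 (adjusted p = 0.735) in males. Its sign in females turned under upper-quartile scaling (-0.0078), in the fit of the compared groups alone (-0.0015), and without the 3 libraries named above (-0.090).

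Col4a2 was at 448, 398, 399.6 and 568 CPM in female controls and 360.4, 547, 582.8 and 441 in female GOF, and at 429.8, 404, 598 and 684 in male controls and 729, 485, 707 and 640.6 in male GOF. It overlapped likewise, at 0.091 ± 0.20 (adjusted p = 0.74) in females against 0.28 ± 0.20 (adjusted p = 0.288) in males. The ratio of Col4a1 to Col4a2 counts stayed between 1.47 and 2.01 over all 16 libraries. The female and male GOF ratios were 1.47 to 1.65 and 1.68 to 1.73, and the control ratios 1.56 to 1.76 and 1.82 to 2.01. The genotypes overlapped in this ratio in females and were apart in males, with GOF lower.

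Type IV genes lie in head-to-head pairs, and the starts of this pair are so close that the gene models overlap at their first exons on chromosome 8. The 2 start windows (RefSeq, GRCm38.p6), Col4a1 at chr8:11312777-11313076 on the minus strand and Col4a2 at chr8:11312555-11312854 on the plus strand, therefore share 78 bases, which capitals mark and which are reverse complements of each other.
Col4a1: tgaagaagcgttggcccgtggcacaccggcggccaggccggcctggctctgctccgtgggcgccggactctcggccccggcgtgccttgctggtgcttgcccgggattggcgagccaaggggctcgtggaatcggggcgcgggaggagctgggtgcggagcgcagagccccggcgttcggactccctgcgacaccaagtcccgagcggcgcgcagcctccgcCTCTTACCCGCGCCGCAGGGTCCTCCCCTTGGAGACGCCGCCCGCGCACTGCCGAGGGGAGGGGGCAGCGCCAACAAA
Col4a2: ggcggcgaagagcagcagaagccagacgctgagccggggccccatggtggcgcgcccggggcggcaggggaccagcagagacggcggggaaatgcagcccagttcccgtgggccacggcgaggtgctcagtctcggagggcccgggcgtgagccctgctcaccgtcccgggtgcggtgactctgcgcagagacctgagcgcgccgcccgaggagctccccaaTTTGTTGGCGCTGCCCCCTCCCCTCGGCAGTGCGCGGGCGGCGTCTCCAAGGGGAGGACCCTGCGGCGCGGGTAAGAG
Both held CCAAT and GGGCGG on at least 1 strand, and neither held TATAAA or the TCF and LEF core. The strand setting of the counting is not given in the sources used here, so reads from exons that overlap on opposite strands could be counted for either gene. This touched 0.295% of the exonic bases of Col4a1 and 0.982% of those of Col4a2.

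Col4a3 and Col4a4, whose chains join that of Col4a5 in the filtering membrane of the kidney, fell together in females. Col4a3 was at 40.9, 10.04, 15.5 and 13.4 CPM in female controls and 4.74, 6.41, 5.65 and 5.49 in female GOF, and at 10.1, 14.8, 19.1 and 30.2 in male controls and 13.2, 7.74, 13.6 and 11.3 in male GOF. The female groups were apart and the male groups overlapped. It was at -1.84 ± 0.41 (adjusted p = 0.00253) in females against -0.69 ± 0.39 (adjusted p = 0.182) in males. Female control 1, the library with 804 CPM of kidney tubule markers, was the highest. Without it the female control mean was 13.01 in place of 20.0 CPM and the female fold change -1.22, still past the threshold, and without all 3 libraries it was -1.08. The part of kidney RNA in the difference was not tested. A gene model on the opposite strand covers 5.65% of the exonic bases of Col4a3.

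Col4a4 was at 75.1, 23.5, 33.5 and 39.9 CPM in female controls and 12.1, 16.5, 14.5 and 15.5 in female GOF, and at 24.6, 35.1, 55.1 and 72.7 in male controls and 29.9, 21.7, 39.5 and 29.5 in male GOF. Its pattern was that of Col4a3, with female control 1 highest and overlap in males. It was called in females, at -1.55 ± 0.36 (adjusted p = 0.00335), and not in males, at -0.64 ± 0.35 (adjusted p = 0.166). The female value was -1.12 without the 3 libraries. The ratio of Col4a3 to Col4a4 counts lay between 0.337 and 0.544 in all libraries, and the starts of this pair on chromosome 1 lie 72 bases apart.

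Of the pair on chromosome X, Col4a6 rose in both sexes and Col4a5 in females. Col4a6 (ENSMUSG00000031273, chromosome X, 141165403 to 141474076) encodes a chain found with that of Col4a5 in a subset of basement membranes, such as those around smooth muscle. It was at 10.8, 8.46, 11.9 and 17.6 CPM in female controls and 98.5, 95.6, 128 and 99.7 in female GOF, and at 4.98, 7.40, 16.2 and 7.42 in male controls and 27.5, 32.4, 45.5 and 77.1 in male GOF. The groups were far apart in both sexes, and the 4 female GOF libraries were above every other library. The fold change was 3.11 ± 0.38 (adjusted p = 3.15e-05) in females against 2.34 ± 0.37 (adjusted p = 0.000228) in males, the largest rise among the collagens in each sex. Without the 3 libraries it was 3.01 and 2.25.

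Col4a5 (ENSMUSG00000031274, chromosome X, 141475385 to 141689234) was at 113, 100.4, 105 and 129 CPM in female controls and 209, 236, 335 and 271 in female GOF, and at 42.6, 47.6, 86.1 and 83.8 in male controls and 70.4, 74.1, 96.1 and 119.6 in male GOF. Female GOF stood above all other libraries, and the male groups overlapped. It was called in females, at 1.23 ± 0.24 (adjusted p = 0.000917), and not in males, at 0.47 ± 0.23 (adjusted p = 0.129). The ratio of Col4a6 to Col4a5 counts was 0.0954, 0.0842, 0.113 and 0.137 in female controls and 0.471, 0.406, 0.381 and 0.368 in female GOF, and 0.117, 0.156, 0.188 and 0.0886 in male controls and 0.391, 0.437, 0.473 and 0.645 in male GOF. All 8 GOF ratios exceeded all 8 control ratios.

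The starts of Col4a6 and Col4a5 lie 1309 bases apart, so their windows, shown because both genes rose in females, do not overlap. They come from RefSeq on GRCm38.p6, Col4a6 at chrX:141474027-141474326 on the minus strand and Col4a5 at chrX:141475169-141475468 on the plus strand. Capitals mark GGGCGG and CCAAT boxes on either strand.
Col4a6: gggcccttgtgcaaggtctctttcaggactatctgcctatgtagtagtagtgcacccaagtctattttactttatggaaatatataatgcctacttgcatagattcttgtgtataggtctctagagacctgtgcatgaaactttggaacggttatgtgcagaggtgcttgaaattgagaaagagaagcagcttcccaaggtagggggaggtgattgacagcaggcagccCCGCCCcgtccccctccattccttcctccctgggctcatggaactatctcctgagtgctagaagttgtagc
Col4a5: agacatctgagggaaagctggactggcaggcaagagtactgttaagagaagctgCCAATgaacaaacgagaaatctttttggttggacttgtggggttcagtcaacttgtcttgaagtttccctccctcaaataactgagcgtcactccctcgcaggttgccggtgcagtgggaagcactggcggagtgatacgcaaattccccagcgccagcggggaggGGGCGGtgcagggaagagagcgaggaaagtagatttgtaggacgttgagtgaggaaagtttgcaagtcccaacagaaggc
GGGCGG stood in both windows and CCAAT in that of Col4a5. Neither TATAAA nor the TCF and LEF core was found in these letters.

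**Figure D3:**
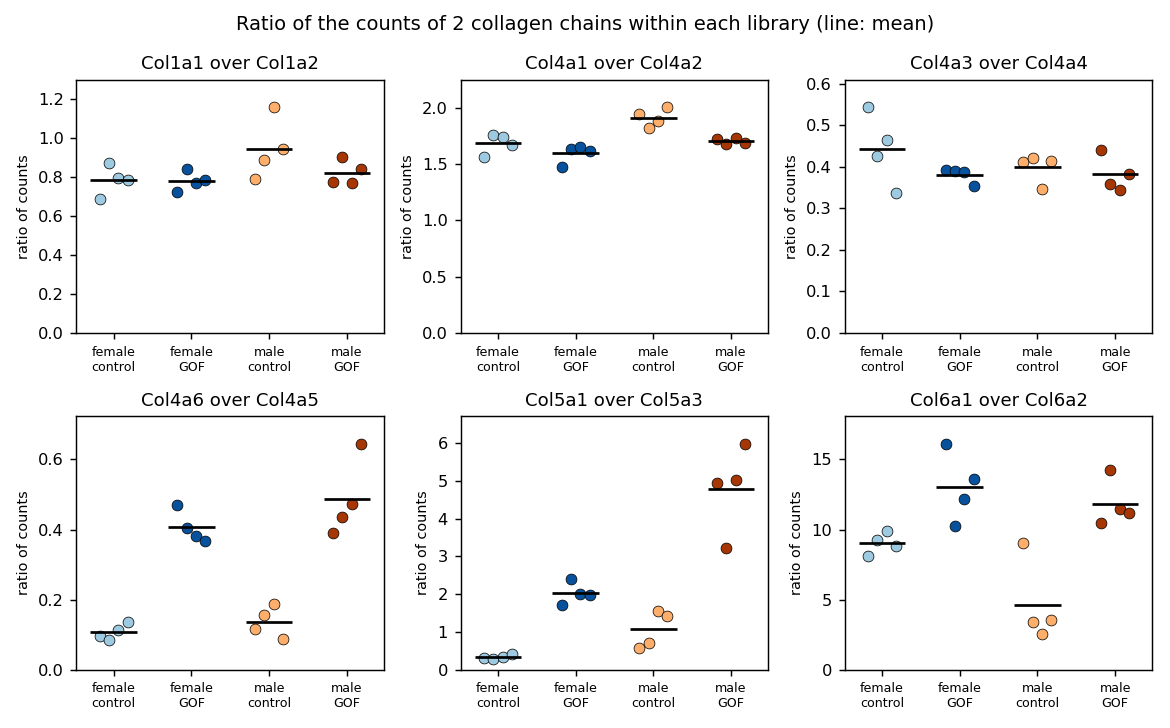
Ratio of the counts of 2 collagen chains within each library, by group, with lines for the mean. The ratios of Col4a6 to Col4a5 and of Col5a1 to Col5a3 lie higher in every GOF library than in every control of its sex, while Col1a1 to Col1a2 and Col4a3 to Col4a4 overlap between genotypes in both sexes and Col4a1 to Col4a2 in females but not in males.

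Type VIII collagen, a short-chain network collagen of vessel walls and the eye, was lower in both sexes. Col8a2 ranged over 8.33 to 14.2 CPM in female controls and 2.84 to 3.98 in female GOF, and over 12.6 to 23.4 and 4.96 to 5.93 in male controls and male GOF, with calls of -1.77 ± 0.20 (adjusted p = 1.51e-05) and -1.59 ± 0.20 (adjusted p = 2.56e-05). Col8a1 ranged over 6.55 to 8.74 and 2.69 to 5.35 CPM in the female groups and over 6.22 to 13.6 and 3.001 to 8.01 in the male groups, which overlapped. Its calls, -1.0005 ± 0.31 (adjusted p = 0.0178) and -0.96 ± 0.30 (adjusted p = 0.023), were lost without female GOF 1 in females and without male control 3 or 4 or male GOF 1 or 2 in males.

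Of the 22 other collagens tested, 1 was higher and 15 were lower in females (72.7% called, against 39.6% of all genes), and 1 was higher and 14 were lower in males (68.2%, against 36.9%). Type VI collagen forms beaded filaments close to cells, from chains of Col6a1, Col6a2 and 1 of Col6a3 to Col6a6. Col6a1 (ENSMUSG00000001119, chromosome 10, 76708792 to 76726168) was at 963, 973, 1168 and 1145 CPM in female controls and 585, 703, 739 and 725 in female GOF, and at 735, 631, 743 and 788 in male controls and 912, 918, 882 and 950.4 in male GOF. Female controls were the highest group and male GOF libraries lay between the female controls and the male controls, with no overlap between genotypes in either sex. The fold change was -0.63 ± 0.10 (adjusted p = 0.000163) in females against 0.34 ± 0.10 (adjusted p = 0.0132) in males. The male call was lost without male control 2, and without the 3 libraries, where the value was 0.27.

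Col6a2 was lower in both sexes. It was at 119, 105, 118 and 129.8 CPM in female controls and 36.3, 68.4, 60.6 and 53.3 in female GOF, and at 81.0, 184, 292 and 224 in male controls and 87.2, 64.6, 77.0 and 84.9 in male GOF, which overlapped through male control 1. Its calls were -1.11 ± 0.29 (adjusted p = 0.0069) and -1.32 ± 0.29 (adjusted p = 0.00246). The ratio of Col6a1 to Col6a2 counts was 8.12, 9.25, 9.86 and 8.82 in female controls and 16.1, 10.3, 12.2 and 13.6 in female GOF, and 9.07, 3.42, 2.54 and 3.52 in male controls and 10.5, 14.2, 11.4 and 11.2 in male GOF. Male control 1 stood apart from the other male controls in this ratio. Col6a3 was at 78.8, 73.4, 67.6 and 89.3 CPM in female controls and 41.0, 88.6, 101 and 47.8 in female GOF, and at 33.1, 86.8, 178 and 139.5 in male controls and 68.0, 49.4, 78.7 and 85.5 in male GOF. The groups overlapped in both sexes, at -0.15 ± 0.40 (adjusted p = 0.789) and -0.63 ± 0.40 (adjusted p = 0.23), and the male value passed only without male control 1.

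Of the chains that can take the place of Col6a3, Col6a5 and Col6a6 were called lower in both sexes. Col6a5 was at 8.06, 3.91, 4.31 and 4.58 CPM in female controls and 0.614, 2.79, 2.69 and 1.43 in female GOF, and at 11.9, 13.2, 55.1 and 34.9 in male controls and 4.19, 1.46, 3.48 and 5.59 in male GOF. Male controls 3 and 4 were far above the rest, and neither sex had overlap between genotypes. The fold change was -2.97 ± 0.58 (adjusted p = 0.00109) in males and -1.47 ± 0.56 (adjusted p = 0.0499) in females, where the call was lost without female control 1, 2, 3 or 4, female GOF 1, 3 or 4, male control 4 or male GOF 1 or 3. Col6a6 was at 12.2, 5.94, 5.33 and 8.63 CPM in female controls and 2.89, 4.49, 4.03 and 3.32 in female GOF, and at 6.55, 14.9, 33.7 and 17.5 in male controls and 2.07, 3.86, 2.03 and 3.44 in male GOF. The genotypes were apart in both sexes. It was at -2.67 ± 0.42 (adjusted p = 0.000197) in males and -1.12 ± 0.41 (adjusted p = 0.0393) in females, where the call was lost without female control 1 or 4 or female GOF 1, 3 or 4. Col6a4 ranged over 0.277 to 1.27 CPM in female controls and 0.0597 to 0.175 in female GOF. Its female call of -2.08 ± 0.70 (adjusted p = 0.0277) was lost without female control 1 or female GOF 2 or 3, and without female control 1 its fold change was -1.37. It did not pass in males, at 0.22 ± 0.63 (adjusted p = 0.818).

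The fibril-associated collagens (FACIT), which sit on the surface of fibrils, had 4 lower and 1 higher of 7 tested in females and 4 lower in males. Of all genes, 20.6% were lower and 19.0% higher in females, and 21.8% were lower in males. Col9a2, known from cartilage, was at 4.39, 4.42, 2.15 and 4.61 CPM in female controls and 0.117, 0.573, 0.179 and 0.686 in female GOF, and at 3.66, 8.22, 7.88 and 6.93 in male controls and 0.875, 1.40, 0.526 and 0.604 in male GOF. No GOF library reached a control, and the calls were -3.30 ± 0.51 (adjusted p = 0.00016) and -2.97 ± 0.49 (adjusted p = 0.00026). Col12a1, which binds type I fibrils, was at 40.9, 28.7, 27.5 and 37.2 CPM in female controls and 9.24, 23.2, 11.98 and 7.09 in female GOF, and at 46.1, 53.3, 74.7 and 91.4 in male controls and 24.3, 19.9, 47.0 and 39.5 in male GOF. Male GOF 3 overlapped with the lowest male control. Calls were -1.38 ± 0.36 (adjusted p = 0.00751) in females against -1.02 ± 0.35 (adjusted p = 0.0346) in males, where the call was lost without male control 3 or 4 or male GOF 1 or 2.

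Col16a1, also fibril-associated, was at 62.8, 57.5, 55.4 and 79.2 CPM in female controls and 21.3, 28.2, 25.5 and 22.1 in female GOF, and at 95.3, 96.7, 111 and 134 in male controls and 57.5, 51.2, 68.9 and 46.3 in male GOF. The genotypes were apart in both sexes and the spread within groups was small, giving -1.39 ± 0.15 (adjusted p = 9.74e-06) in females against -0.96 ± 0.15 (adjusted p = 0.000154) in males. Col22a1, a collagen of tissue junctions such as that of muscle and tendon, was at 4.88, 5.10, 5.26 and 6.84 CPM in female controls and 8.89, 12.8, 10.8 and 6.29 in female GOF, and at 3.63, 4.39, 4.64 and 5.98 in male controls and 4.82, 4.34, 4.43 and 5.44 in male GOF. Female GOF 4 lay within the female control range and the male groups overlapped. It was called higher in females, at 0.81 ± 0.21 (adjusted p = 0.00732), and not in males, at 0.03 ± 0.21 (adjusted p = 0.93). Col14a1, which ranged over 22.9 to 39.6 and 7.54 to 20.4 CPM in female controls and female GOF and over 28.7 to 108 and 17.1 to 30.5 in the male groups, was called lower in both, at -1.08 ± 0.36 (adjusted p = 0.0273) and -1.49 ± 0.36 (adjusted p = 0.00501). Its female call was lost without female control 1 or 4 or female GOF 1 or 4. Col20a1, at 5.33 to 9.77 CPM in female controls, and Col9a3, at 0.277 to 0.440, passed in neither sex.

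Multiplexins are basement membrane collagens whose ends release fragments such as endostatin, from Col18a1. Col18a1 (ENSMUSG00000001435, chromosome 10, 77052178 to 77166548) was at 112, 87.3, 76.2 and 97.5 CPM in female controls and 58.8, 115, 113 and 105 in female GOF, and at 82.1, 199, 149 and 139 in male controls and 78.3, 44.2, 57.4 and 55.0 in male GOF. The female groups overlapped, with female GOF 1 lowest, and the male groups did not. It was called lower in males, at -1.27 ± 0.26 (adjusted p = 0.00164), and not in females, at 0.073 ± 0.26 (adjusted p = 0.845). Col15a1 was at 91.0, 53.9, 68.0 and 87.4 CPM in female controls and 18.5, 51.5, 46.1 and 50.6 in female GOF, and at 26.5, 109, 179 and 144 in male controls and 77.3, 45.1, 60.9 and 75.8 in male GOF. The female groups were apart by a small margin and the male groups overlapped through male control 1. It missed the threshold in both sexes, at -0.85 ± 0.44 (adjusted p = 0.145) and -0.82 ± 0.44 (adjusted p = 0.158), and passed in each without male control 1.

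Transmembrane collagens had 3 lower of 4 tested in each sex, where 20.6% of all genes were lower in females and 21.8% in males. Col23a1 was at 15.5, 22.0, 15.1 and 18.1 CPM in female controls and 7.13, 9.64, 10.4 and 7.15 in female GOF, and at 17.4, 19.7, 12.8 and 13.3 in male controls and 3.29, 4.57, 5.16 and 3.47 in male GOF. Both sexes were apart between genotypes, at -1.04 ± 0.20 (adjusted p = 0.000871) and -1.94 ± 0.21 (adjusted p = 5.43e-06). Col25a1, ranging over 6.68 to 10.8 and 2.24 to 3.42 CPM in the female groups and 6.14 to 10.4 and 2.83 to 3.93 in the male groups, was at -1.60 ± 0.21 (adjusted p = 3.95e-05) and -1.33 ± 0.20 (adjusted p = 0.000151). Col13a1, over 11.2 to 14.3 and 4.15 to 7.72 CPM in females and 8.98 to 15.0 and 5.75 to 9.94 in males, was at -1.07 ± 0.21 (adjusted p = 0.00124) and -0.65 ± 0.21 (adjusted p = 0.0263), and its male call was lost without male control 2, 3 or 4 or male GOF 1 or 4. Col17a1, a chain of epithelial anchoring junctions, reached at most 0.587 CPM in any library and passed in neither sex.

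The 3 collagens outside these classes were lower in both sexes, where 20.6% of all genes were lower in females and 21.8% in males. Col26a1 was at 3.58, 0.581, 0.585 and 1.06 CPM in female controls and 0.117, 0.115, 0 and 0.200 in female GOF, and at 1.17, 3.07, 1.92 and 1.22 in male controls and 0.186, 0.229, 0.300 and 0.151 in male GOF. Female control 1 was far above its group, and without it the female control mean was 0.741 in place of 1.45 CPM. The fold changes, -3.70 ± 0.73 (adjusted p = 0.00106) in females against -3.06 ± 0.68 (adjusted p = 0.00261) in males, were the lowest among the collagens. Without the 3 libraries Col26a1 was at -2.88 and -2.71, and Col9a2 was lower, at -3.51 and -2.86. Col28a1, known from nerve sheaths, was at 4.61, 5.97, 4.25 and 5.87 CPM in female controls and 1.08, 2.95, 0.956 and 1.20 in female GOF, and at 8.31, 21.5, 12.2 and 16.7 in male controls and 2.33, 2.40, 1.15 and 2.99 in male GOF. No GOF library reached a control of its sex, at -1.73 ± 0.39 (adjusted p = 0.00276) and -2.73 ± 0.40 (adjusted p = 8.84e-05). Col7a1, which forms the anchoring fibrils of skin, was at 11.5, 5.29, 6.96 and 11.4 CPM in female controls and 1.37, 2.54, 1.13 and 1.86 in female GOF, and at 8.80, 23.7, 7.33 and 16.7 in male controls and 3.90, 2.46, 5.78 and 5.50 in male GOF. Its genotypes were apart in both sexes, at -2.34 ± 0.42 (adjusted p = 0.000522) and -1.68 ± 0.40 (adjusted p = 0.00468).

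The levels summed over each class are a description, and no p is given for them. The fibrillar sum was 1805, 1908, 1744 and 2066 CPM in female controls and 814, 1279.6, 1104 and 1165 in female GOF, and 1357, 2669.8, 5892 and 3413 in male controls and 1398, 1100.4, 1426 and 1434 in male GOF. The female groups were apart, and male control 1, at 1357 CPM, fell within the male GOF range while male control 3 reached 5892. The network sum was 1420.2 ± 223 CPM in female controls and 1654 ± 349.8 in female GOF, and 1712 ± 479.8 and 1923 ± 329 in the male groups (SD, n = 4), with overlap in both sexes. The sum of the other collagens was 1639 ± 132 and 1049 ± 159 CPM in the female groups, which were apart, and 1665 ± 352 and 1345 ± 66.7 in the male groups, which overlapped. Per length, in FPKM (fragments scaled to gene length and library depth), the total of all 44 collagens was 1845 ± 217 in female controls, 1414 ± 286 in female GOF, 2789 ± 1211 in male controls and 1907 ± 243 in male GOF.

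**Figure D4:**
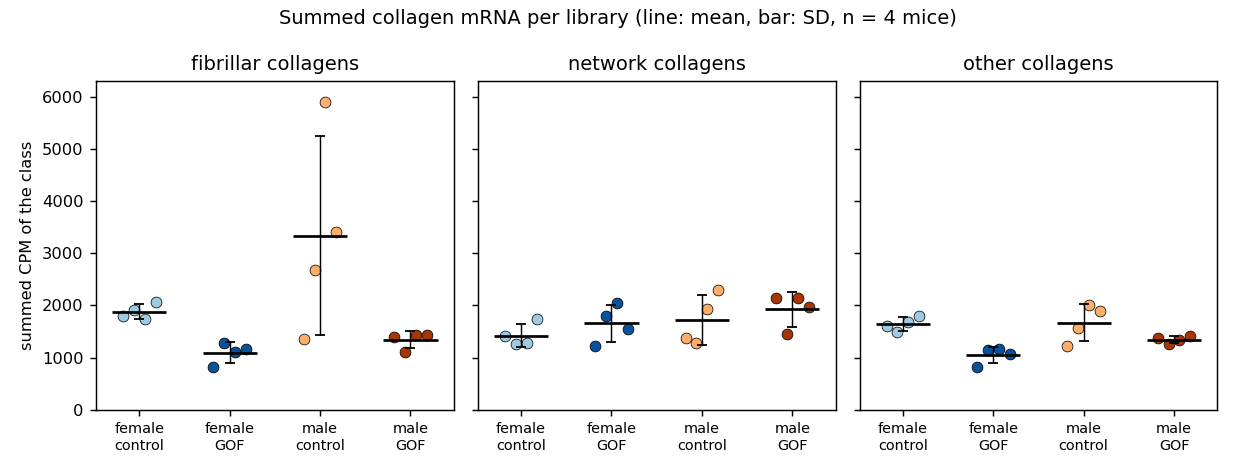
Summed CPM of fibrillar, network and other collagens in each library, by group, with lines for the mean and bars for the SD (n = 4). The fibrillar sums of male controls run from 1357 to 5892, and the network sums of all groups overlap.

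Levels of different collagens were compared per length. Of the 44, 36 reached a group mean of 1 FPKM, 19 reached 10 and 8 reached 100. Col6a1 led in female controls, at 408 ± 44.7 FPKM, ahead of Col4a1 at 343 ± 63.4 and Col3a1 at 239 ± 33.2, and the spreads of the first pair overlapped. In male controls Col3a1 led, at 579.8 ± 421, followed by Col4a1 at 465 ± 144 and Col1a1 at 457 ± 339, with spreads too wide to order them. Col4a1 led both GOF groups, at 364 ± 89.8 in females and 541 ± 105 in males, followed by Col6a1 at 275 ± 27.6 and 385 ± 11.2, again within the spread in females. The FPKM length is the mean over all annotated transcripts, short ones included. With the length of the longest coding transcript in its place, an alternative chosen after seeing the data, Col6a1 led female controls, female GOF and male GOF, and Col3a1 led male controls.

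The make-up of each class was also taken per length, as a description. Col5a1 made up 5.14% of the fibrillar FPKM in female controls and 20.1% in female GOF, and 3.19% and 18.7% in the male groups. Col5a3 made up 14.6% and 9.53% in the female groups and 2.96% and 3.71% in the male groups. Within the network class Col4a5 was at 4.58% of the FPKM in female controls and 9.65% in female GOF, and Col4a6 reached 4.68% in female GOF and 1.63% in male GOF. Col4a1 and Col4a2 together remained the bulk, with Col4a1 at 61.9%, 56.7%, 66.7% and 64.3% of the class in female control, female GOF, male control and male GOF.

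Between the sexes, 10 of 40 collagens passed in controls, 7 higher and 3 lower in males, where 23.4% of all genes passed (13.5% higher, 9.89% lower), so the share of collagens was near the background. Higher in males were Col6a5 (2.46 ± 0.56, adjusted p = 0.00645), Col1a1 (1.56 ± 0.45, adjusted p = 0.0222), Col28a1 (1.504 ± 0.38, adjusted p = 0.0109), Col1a2 (1.20 ± 0.37, adjusted p = 0.031), Col6a6 (1.178 ± 0.40, adjusted p = 0.0461), Col14a1 (1.17 ± 0.36, adjusted p = 0.0287) and Col16a1 (0.78 ± 0.15, adjusted p = 0.00191). Of these, Col6a5, Col28a1 and Col16a1 had no overlap between the sexes. Lower in males were Col5a3 (-1.20 ± 0.14, adjusted p = 4.01e-05), Col4a5 (-0.78 ± 0.23, adjusted p = 0.0263) and Col6a1 (-0.55 ± 0.10, adjusted p = 0.001), all 3 without overlap. With the title number range as a covariate 3 of the 10 calls were left (Col1a1, Col16a1 and Col5a3), where 7.20% of all genes passed. Col1a2, Col4a5, Col6a1, Col6a5, Col6a6, Col14a1 and Col28a1 were lost. Only the lowest range held both sexes. The sex comparisons with this covariate therefore rested on female control 1 and female GOF 1 against male controls 1, 2 and 3 and male GOF 1 and 2. In the other ranges sex and range cannot be told apart. Col1a1, Col1a2 and Col6a6 also lost their calls with no filter, with only the groups compared and with FPKM, Col14a1 with no filter on counts or FPKM and with only the groups compared, Col4a5 with FPKM and no filter, and Col6a6 with upper-quartile factors. Col3a1 just missed, at 1.26 ± 0.44 (adjusted p = 0.0512), and passed without female GOF 1 or male control 1 and with DESeq2.

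The calls in controls changed with single libraries. The number of calls was 17 without male control 1 (26.2% of all genes passed in that fit), 6 without male control 3 (18.4%) and 5 without female control 3 (14.3%). It was 4 without the 3 libraries with kidney or liver transcripts (Col5a3, Col16a1, Col6a1 and Col6a5), where 8.70% of all genes passed. The call of Col1a1 was lost without female control 1 or 3 or male control 3, with a fold change of 0.95 without male control 3. That of Col1a2 was lost without female control 1, 2, 3 or 4 or male control 3 or 4, and was 0.77 without male control 3. Col14a1 lost its call without female control 2 or 3 or male control 3 or 4, Col4a5 without female control 3 or 4 or male control 1 or 2, and Col6a6 in 14 of 16 such fits, male control 1 and female control 1 being the exceptions; its value was 0.69 without male control 3. Capsule and fibroblast markers were higher in male controls for 4 of 6 genes (summed 671 to 862 CPM against 375 to 482 in females), macrophage markers for 4 of 6 (201 to 289 against 85.2 to 183) and Schwann cell markers for 3 of 6 (43.5 to 217 against 26.4 to 89.1). Adipocyte markers were higher for 2 of 6 (1073 to 2544 against 820.2 to 1282), pericyte and smooth muscle markers for 2 of 6 (196 to 489.9 against 173 to 272), and cartilage and skeletal muscle markers each for 2 of 4 tested. Adrenal cortex markers were lower for 1 of 6. Their part in these differences was not tested.

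In GOF adrenals 15 collagens differed by sex, 9 higher and 6 lower in males, where 29.6% of all genes passed (13.3% higher, 16.3% lower). Col27a1 had the largest difference, at 2.37 ± 0.38 (adjusted p = 0.000422), and Col11a2 (1.44 ± 0.38, adjusted p = 0.00995), Col7a1 (1.35 ± 0.41, adjusted p = 0.0217), Col12a1 (1.34 ± 0.36, adjusted p = 0.0116), Col16a1 (1.20 ± 0.15, adjusted p = 5.13e-05), Col4a4 (1.04 ± 0.35, adjusted p = 0.0376), Col8a2 (0.73 ± 0.20, adjusted p = 0.0128), Col6a4 (2.06 ± 0.70, adjusted p = 0.037) and Col6a1 (0.41 ± 0.10, adjusted p = 0.00494) were also higher in males. Lower in males were Col4a5 (-1.55 ± 0.24, adjusted p = 0.00027), Col4a6 (-1.21 ± 0.36, adjusted p = 0.0191), Col23a1 (-1.06 ± 0.20, adjusted p = 0.00122), Col22a1 (-1.03 ± 0.21, adjusted p = 0.00222), Col5a3 (-0.96 ± 0.14, adjusted p = 0.000178) and Col18a1 (-0.74 ± 0.26, adjusted p = 0.0438). Of the 15, Col7a1, Col12a1 and Col18a1 overlapped between the sexes. The number of calls was 10 without female GOF 3 (22.9% of all genes). Without the 3 libraries with kidney or liver transcripts it was 16, all 15 and Col4a3, where 27.3% of all genes passed. With the title number range as a covariate 5 of the 15 calls were left (Col16a1, Col6a1, Col4a5, Col22a1 and Col5a3), where the share of all genes that passed was 7.34%. Col27a1, Col4a6, Col4a4, Col6a4, Col7a1, Col8a2, Col11a2, Col12a1, Col18a1 and Col23a1 were lost. Here too only the lowest range held both sexes, so in the other ranges sex and range cannot be told apart. Col18a1 also lost its call with upper-quartile factors, no filter or FPKM, Col6a4 with FPKM and no filter (it was not tested in the filtered FPKM fits or with only the groups compared), Col4a4 with no filter or log2(FPKM + 1), Col4a6 with no filter, Col7a1 with log2(FPKM + 1) and Col8a2 with that and no filter. Calls were lost for Col18a1 in 10 of 16 fits that left out 1 library, for Col4a4 without female GOF 1, 2, 3 or 4 or male GOF 1, 3 or 4, for Col4a6 without female GOF 3 or male GOF 1 or 2, for Col7a1 without female GOF 1 or 3 or male GOF 3 or 4, and for Col6a4 without female GOF 1, 2, 3 or 4 or male GOF 2, with 0.88 without male GOF 2. Capsule and fibroblast markers were higher in male GOF for 5 of 6 genes (summed 191 to 228 CPM against 119.9 to 173 in females), endothelial markers for 5 of 6 (752 to 972 against 548 to 623) and macrophage markers for 4 of 6 (312 to 674 against 155 to 237). Pericyte and smooth muscle markers were higher for 2 of 6 and cartilage markers for 1 of 4 tested. Adrenal cortex markers were lower in male GOF for 4 of 6 genes (29110.0 to 40370.0 against 39110.0 to 46090.0) and adipocyte markers for 2 of 6 (285 to 369.7 against 339.5 to 547). The part of these lists was not tested.

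The interaction asks whether the effect of GOF differed between the sexes. Only Col6a1 passed, 1 of 40 collagens where 4.21% of all genes passed (1.59% higher, 2.61% lower), with 0.97 ± 0.14 (adjusted p = 0.00168) for the male minus the female effect. At an unadjusted p under 0.05 there were 8 of the 40 collagens. The share of all genes at that threshold is not given here, so no excess can be read from this count. Col18a1 missed the threshold, at -1.35 ± 0.37 (adjusted p = 0.0524), as did Col23a1, at -0.90 ± 0.28 (adjusted p = 0.0864), and Col27a1, at 1.54 ± 0.52 (adjusted p = 0.111). Col18a1 passed when female GOF 1, male control 1 or male GOF 1 was left out, Col27a1 without female GOF 2 and Col6a6 without male control 1, and the number of calls was at most 3, without male control 1. DESeq2 called 4, adding Col18a1, Col23a1 and Col27a1 (7.87% of all genes). Without the 3 libraries with kidney or liver transcripts Col6a1 was again the 1 call, where 0.924% of all genes passed. Among the cell type markers, 3 of 6 adipocyte genes were called lower for the interaction, and no gene of the other lists passed. Their part was not tested. For Col1a1, Col3a1, Col4a5 and Col4a6 the interaction was -0.91 ± 0.62 (adjusted p = 0.435), -0.86 ± 0.61 (adjusted p = 0.454), -0.76 ± 0.33 (adjusted p = 0.208) and -0.77 ± 0.51 (adjusted p = 0.416), so a difference between the sexes was not shown for them.

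Likeness of log2 levels across the 16 libraries is given as a description, since the points share libraries and groups. Pearson's r of Col1a1 was 0.99 with Col1a2 and 0.98 with Col3a1, and 0.99 and 0.98 after group means were removed. Col4a1 and Col4a2 had r of 0.96, and 0.99 within groups, and Col4a6 and Col4a5 0.81 and 0.80. For Col6a1 the highest r with another collagen was 0.41, with Col4a3, and 0.039 within groups. Among all other tested genes, those nearest to Col1a1 were Cpz, Cacng4, Fndc1, Ctsk and Adamts2 (r of 0.95, 0.94, 0.94, 0.93 and 0.93), those nearest to Col4a1 were Fblim1, Vstm4, Prcd, Flna and Loxl2 (0.93, 0.91, 0.87, 0.87 and 0.85), and those nearest to Col4a6 were Ldb2, Crybb1, A730017L22Rik, Sf3b3 and Itga9 (0.96, 0.95, 0.94, 0.94 and 0.94). Within groups the last 5 had r of 0.80, 0.53, 0.72, 0.52 and 0.22.

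Partner genes are given as means ± SD (n = 4). Their counts stand beside 39.6% of all tested genes called in females (19.0% higher, 20.6% lower) and 36.9% in males (15.2% higher, 21.8% lower). Of 19 genes for collagen chain modification and folding, 6 were higher and 5 lower in females (median log2 fold change 0.016), and 4 and 5 in males (0.044). Fkbp10, a folding helper of collagen, went from 22.1 ± 3.40 to 45.6 ± 2.56 CPM, log2 fold change 1.05 ± 0.15 (adjusted p = 0.000106) in females, and from 53.2 ± 13.5 to 73.9 ± 5.79 CPM, log2 fold change 0.47 ± 0.15 (adjusted p = 0.0232) in males. Crtap, part of the prolyl 3-hydroxylation complex, went from 138 ± 13.9 to 218 ± 34.3 CPM, log2 fold change 0.66 ± 0.10 (adjusted p = 0.000201) in females, and Plod2, a lysyl hydroxylase, from 236 ± 43.4 to 383 ± 30.2 CPM, log2 fold change 0.70 ± 0.13 (adjusted p = 0.000842) in males. Lower were P4ha3, a prolyl 4-hydroxylase subunit, from 2.12 ± 0.866 to 0.442 ± 0.292 CPM, log2 fold change -2.26 ± 0.57 (adjusted p = 0.00588) in females and 3.62 ± 1.58 to 0.485 ± 0.288 CPM, log2 fold change -2.90 ± 0.57 (adjusted p = 0.00119) in males, P3h2 in females, from 20.3 ± 5.69 to 4.93 ± 0.942 CPM, log2 fold change -2.04 ± 0.23 (adjusted p = 1.41e-05), and P3h3 in males, from 57.3 ± 8.54 to 33.4 ± 4.47 CPM, log2 fold change -0.78 ± 0.13 (adjusted p = 0.000291). For P3h2 the interaction was also called, at 1.42 ± 0.32 (adjusted p = 0.0233).

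Of 12 tested genes for propeptide processing and cross-linking, 1 was higher and 6 lower in females (median -0.43), and 2 and 5 in males (0.14). The lowest in females were Loxl4, from 3.35 ± 1.06 to 1.11 ± 0.324 CPM, log2 fold change -1.59 ± 0.34 (adjusted p = 0.00211), and Pcolce2, from 3.88 ± 1.32 to 1.29 ± 0.558 CPM, log2 fold change -1.59 ± 0.38 (adjusted p = 0.0044). In males they were Pcolce2, from 5.95 ± 2.30 to 1.41 ± 0.410 CPM, log2 fold change -2.08 ± 0.39 (adjusted p = 0.000694), and the cross-linking enzyme Loxl1, from 79.2 ± 27.8 to 25.1 ± 2.68 CPM, log2 fold change -1.66 ± 0.24 (adjusted p = 7.69e-05). Higher were Bmp1, a procollagen C-proteinase, in females, from 73.1 ± 11.1 to 90.5 ± 5.48 CPM, log2 fold change 0.31 ± 0.11 (adjusted p = 0.0319), and in males its relative Tll1, from 1.91 ± 0.649 to 3.27 ± 0.801 CPM, log2 fold change 0.78 ± 0.28 (adjusted p = 0.041), and Loxl2, from 49.0 ± 11.4 to 78.7 ± 21.0 CPM, log2 fold change 0.68 ± 0.22 (adjusted p = 0.0245), all 3 with overlap between genotypes. For Tll1 the interaction passed, at 1.65 ± 0.40 (adjusted p = 0.0319).

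Fibril-binding proteins were lower for 6 of 10 genes in females (median -0.89) and 8 of 10 in males (-1.09), with 0 higher in either. Lum (lumican) went from 50.3 ± 5.17 to 9.21 ± 4.12 CPM, log2 fold change -2.45 ± 0.33 (adjusted p = 6.12e-05) in females and 73.4 ± 29.4 to 12.4 ± 1.08 CPM, log2 fold change -2.56 ± 0.33 (adjusted p = 3.36e-05) in males, and Dcn (decorin) from 216 ± 22.6 to 51.7 ± 14.9 CPM, log2 fold change -2.06 ± 0.18 (adjusted p = 1.97e-06) in females and 444 ± 66.3 to 79.9 ± 10.8 CPM, log2 fold change -2.47 ± 0.18 (adjusted p = 4.07e-07) in males. Both genes are also among the capsule and fibroblast markers. Of 14 genes for collagen breakdown and its inhibitors, 1 was higher and 6 lower in females (median -0.63), and 0 and 6 in males (-0.77). The inhibitor Timp4 went from 7.31 ± 2.29 to 0.940 ± 0.498 CPM, log2 fold change -2.95 ± 0.36 (adjusted p = 2.58e-05) in females and 11.2 ± 2.82 to 1.15 ± 0.293 CPM, log2 fold change -3.28 ± 0.36 (adjusted p = 8.17e-06) in males. The gelatinase Mmp2 was lower in females, from 40.6 ± 8.49 to 10.7 ± 3.83 CPM, log2 fold change -1.92 ± 0.27 (adjusted p = 7.95e-05), and the membrane protease Mmp16 in males, from 4.47 ± 1.96 to 0.595 ± 0.0269 CPM, log2 fold change -2.90 ± 0.28 (adjusted p = 2.55e-06). Timp1 was higher in females, from 14.0 ± 1.41 to 23.1 ± 3.79 CPM, log2 fold change 0.72 ± 0.25 (adjusted p = 0.0323).

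Of 15 partners of type IV collagen in basement membranes, 1 was higher and 6 lower in females (median -0.32), and 0 and 3 in males (-0.25), a share near that of all genes in females and below it in males. The proteoglycan gene Hspg2 (perlecan) was higher in females, from 203 ± 84.5 to 353 ± 61.4 CPM, log2 fold change 0.80 ± 0.24 (adjusted p = 0.0184). The laminin chains Lama5 and Lamc3 were lower in females, Lama5 from 33.6 ± 10.8 to 18.1 ± 2.67 CPM, log2 fold change -0.89 ± 0.25 (adjusted p = 0.0115) and Lamc3 from 24.7 ± 6.84 to 14.1 ± 5.03 CPM, log2 fold change -0.81 ± 0.30 (adjusted p = 0.0429). In males the lowest were Lamb3, from 2.11 ± 0.822 to 0.803 ± 0.172 CPM, log2 fold change -1.39 ± 0.29 (adjusted p = 0.00185), and Lama4, from 64.8 ± 23.6 to 36.3 ± 5.57 CPM, log2 fold change -0.83 ± 0.25 (adjusted p = 0.0192). Of 8 tested collagen receptors, 1 was lower in females and 2 were lower and 1 higher in males. Ddr2, a receptor tyrosine kinase for fibrillar collagen, went from 26.3 ± 6.64 to 13.4 ± 1.60 CPM, log2 fold change -0.97 ± 0.18 (adjusted p = 0.000795) in females and 31.6 ± 6.52 to 20.6 ± 2.68 CPM, log2 fold change -0.62 ± 0.18 (adjusted p = 0.0146) in males. The integrin chain Itga2 was lower in males, from 20.2 ± 8.92 to 5.95 ± 1.29 CPM, log2 fold change -1.77 ± 0.40 (adjusted p = 0.00295), and the inhibitory leukocyte receptor Lair1 was higher, from 5.08 ± 1.21 to 11.7 ± 3.67 CPM, log2 fold change 1.20 ± 0.26 (adjusted p = 0.00252).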

How the data were processed

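RNA-seq libraries (NEBNext kit, RNA integrity number of at least 7.0, 150 bp paired-end reads, per the labels' protocols) were made from 16 adrenal samples. The deposited table gives raw counts per gene and FPKM values, both made by the authors. The submitters' processing notes name Bowtie2 2.2.3, TopHat2 2.0.12, HTSeq 0.6.1 and DESeq 1.18.0, with no roles; the genome build and the strand setting of the counting are not given in the sources used here. The lengths implied by the deposited FPKM lay within 1% of the mean GENCODE M21 transcript length for 97.1% of 20938 genes, and 54723 of 54838 identifiers were in that annotation, whose build (GRCm38) was used for coordinates. Groups were taken from the sample labels, which name no batch. All 44 collagens were kept. Library totals of 31275146 to 43003968 counts set the precision, and no 2 replicates agreed within sampling noise.

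Counts were filtered with filterByExpr, scaled by TMM and fitted with edgeR 4.0.16 (R 4.3.3, robust quasi-likelihood, 1 mean per group), giving adjusted p-values over 18214 genes. CPM use the same scaling. Alternatives were DESeq2 1.42.0, other scalings, no filter, limma 3.58.1 on log2(FPKM + 1) or log2(FPKM + 0.1), only the compared groups, the range of the numbers in the titles as a covariate, each library left out, 3 libraries left out together, and a size threshold. Library by library values were given for the 5 highest and 5 lowest called fold changes per comparison with a mean of at least 1 FPKM, for fixed chain partners and for collagens called in the interaction. Partner genes were named as the 2 highest and 2 lowest called per sex. The members and all lists were chosen with earlier results of these data known.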

Additional observations from a re-analysis of the deposited data

Results flagged for a closer look

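For the 29 collagens given library by library, 116 sets of 4 libraries (1 collagen in 1 group) were examined, and 9 had 1 library far from the other 3 by Dixon's test, a rule that chance meets in about 1 in 20 sets. In female controls these were Col26a1 in replicate 1 (3.58 CPM), Col6a5 in replicate 1 (8.06), Col4a1 in replicate 4 (949), Col5a2 in replicate 4 (55.7) and Col9a2 in replicate 3 (2.15, the lowest). In female GOF they were Col15a1 in replicate 1 (18.5, the lowest), Col28a1 in replicate 2 (2.95) and Col4a6 in replicate 3 (128). In male GOF it was Col3a1 in replicate 2 (224, the lowest).

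The effect of GOF on Col6a1 differed between the sexes, with an interaction log2 fold change of 0.97 by edgeR's quasi-likelihood test, being lower with GOF in females and higher in males. The male call was lost without male control 2 and without the 3 libraries with kidney or liver transcripts, while the interaction stayed called in both fits.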

How the results depend on the processing

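Of the called fold changes, 0 turned sign under any alternative run. With the 3 libraries with kidney or liver transcripts left out, 16 collagens were lower in females, where 24.1% of all genes passed. With an absolute log2 fold change of at least 1 required (the size threshold), 1 was higher in males. No share of all genes is given here for that threshold. For males against females in controls the calls were 6 with no filter (3 higher, 8.92% of all genes passed), 3 with the title number range (2 higher, 1 lower, 7.20%), 4 without the 3 libraries (2 higher, 8.70%) and 6 with log2(FPKM + 1) and no filter (4 higher, 10.1%), where 23.4% of all genes passed as reported. Higher calls there were 4 with only the compared groups (20.9% of all genes passed), 4 with log2(FPKM + 0.1) (24.8%) and 12 with DESeq2 (27.9%). At the size threshold 1 was lower. In GOF the calls were 5 with the title number range (2 higher, 3 lower, 7.34% of all genes, from 29.6%). With log2(FPKM + 1) and no filter 5 were higher, where 12.8% of all genes passed. The interaction had 2 calls with the title number range (1 lower, 2.43% of all genes), 4 with DESeq2 (2 higher, 2 lower, 7.87%) and 0 at the size threshold (0 higher). The cause was not tested.

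When single libraries were omitted, there were 24 to 33 calls in females, 21 to 27 in males, 5 to 17 between the sexes in controls (3 to 15 higher, 2 to 3 lower), 10 to 16 in GOF (6 to 10 higher, 4 to 6 lower), and 1 to 3 for the interaction (1 to 2 higher, 0 to 2 lower). The share of all genes that passed moved too. In females it was lowest without female GOF 4 (30.6%) and highest without male control 1, the fit with 33 collagen calls. It ran from 28.2% to 36.1% in males, 14.3% to 26.2% between the sexes in controls and 22.8% to 30.3% in GOF. For the interaction it was 2.03% to 5.13%. These ranges of calls therefore do not show a change of the collagens alone. Among values of GOF against control that were not called, the sign turned for Col4a1 in females (-0.0078 with upper-quartile factors, -0.0015 with only the compared groups, -0.0903 without the 3 libraries, -0.1335 to 0.1737 with single libraries omitted) and in males (-0.0253 without the 3 libraries, -0.0225 to 0.2838 with single omissions). It turned for Col4a2 in females (-0.0022 without the 3 libraries, -0.0501 to 0.2198 with single omissions), Col18a1 in females (-0.0586 to 0.2557) and Col6a3 in females (-0.4234 to 0.0349). In males it turned for Col20a1 (0.0488 with log2(FPKM + 1), with or without a filter, 0.0673 with log2(FPKM + 0.1), -0.173 to 0.0905 with single omissions), Col22a1 (-0.0248 with the title number range, -0.0038 without the 3 libraries, -0.073 to 0.1717 with single omissions), Col6a4 (-0.9936 to 0.4721) and Col9a3 (0.0911 without the 3 libraries, 0.0057 with log2(FPKM + 1) and no filter, -0.4449 to 0.0941 with single omissions).

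For the interaction, uncalled values that turned sign under another scaling, tool, covariate or without the 3 libraries were those of Col4a1, Col6a2, Col8a1, Col9a2, Col12a1, Col15a1 and Col26a1, none of which the text prints; uncalled sex differences also turned, in controls for Col4a3, Col4a4, Col6a4, Col13a1, Col23a1 and Col26a1 and in GOF for Col20a1 and Col25a1.

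No paired analysis was possible because the labels give no replicate numbers, and those used here only name libraries in accession order. Upper-quartile scaling moved the share of all calls that were higher from 41.1% to 51.2% with GOF in males, from 44.9% to 55.2% between the sexes in GOF, and from 37.9% to 62.6% for the interaction. The FPKM fits put the median log2 fold change of all genes with GOF at up to 0.1095 in females and 0.1189 in males, and raised the share of higher calls from 48.0% to 60.7% and from 41.1% to 61.3% with log2(FPKM + 1).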
